A study of Mus musculus with 31 samples.

Results

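The LIF and IL-6 cytokine pathway was followed through 8 genes in mouse embryonic fibroblasts that had received reprogramming retroviruses or a control virus. The genes were chosen by name: the ligands Lif and Il6, the receptor subunits Lifr, Il6st and Osmr, the kinase Jak2, the transcription factor Stat3 and the feedback inhibitor Socs3. They are 8 of the 19938 genes that a probe set with a single gene symbol measured. These genes and the gene lists used below were chosen with earlier results of these data known. Their counts set beside the share of all genes are therefore descriptions only. Each gene is given by its log2 signal on Affymetrix arrays, so that a difference of 1 is a doubling of signal, and signals of different genes are not compared with each other because each probe set has its own response. Socs3 had a second, dimmer probe set, and the brighter of the pair was used.

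Cytokines of the IL-6 family act through gp130, the protein of Il6st. LIF joins gp130 to the LIF receptor, oncostatin M joins it to the product of Osmr or Lifr, and IL-6 needs a receptor of its own in addition. The receptors activate JAK kinases, which phosphorylate STAT3, and STAT3 induces Socs3, whose protein binds gp130 and JAK and shuts the signal off. In mouse embryonic stem cells, LIF and STAT3 sustain self-renewal, and in fibroblasts the same route takes part in inflammatory and matrix responses.

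All cells were mouse embryonic fibroblasts grown in medium with fetal bovine serum and infected on day 0, and the 31 arrays fall into 19 groups. Uninfected cells of day 0 had 2 arrays. The arm labelled 4F received viruses that carry the genes of Klf4, Sox2, Oct4 and c-Myc and had 2 arrays on each of days 1, 2, 3, 4, 5, 6 and 8 and 1 array on days 10 and 12. The arm labelled 3F received Oct4, Sox2 and Klf4 without c-Myc and had 1 array on days 3, 5, 8 and 12. The arm labelled GFP received a virus for green fluorescent protein, with 2 arrays on days 1, 3, 5 and 8 and 1 array on day 12. The labels give no mouse strain, no virus dose and no statement of whether LIF was added, and each sample is a whole culture in which infected and uninfected cells are mixed. Arrays are titled biological replicates, but no label says that they came from separate cultures, so the p-values measure the spread between these arrays. For each gene that spread was estimated once over all arrays tested together. A wide gap between the arrays of 1 group therefore enters the SE of every comparison of that gene. In such bulk samples, fewer cells that express a gene and less RNA per cell cannot be told apart. Precision is limited by how few arrays each group has.

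The promoter windows of Socs3 and Il6 are shown because their signals moved furthest across the 19 group means (2.87 and 5.19 log2 units between the lowest and the highest) and because each holds a match to a motif of a factor downstream of cytokine receptors. The 250 bases before the RefSeq start of each gene (GRCm38.p6) were searched on both strands for the STAT motif TTCNNNGAA, which reads the same on both strands, and for a kappa B-like motif (GGG, any 3 bases, TTCC, or its reverse complement). Capitals mark the match, and each window is printed in the direction of its gene. The Socs3 window lies at chr11:117969367-117969616 on the minus strand and has 1 STAT match, TTCTTAGAA, 154 to 146 bases before the start. The Il6 window lies at chr5:30012864-30013113 on the plus strand and has 1 kappa B-like match, GGGATTTTCC, 44 to 35 bases before the start.
Socs3: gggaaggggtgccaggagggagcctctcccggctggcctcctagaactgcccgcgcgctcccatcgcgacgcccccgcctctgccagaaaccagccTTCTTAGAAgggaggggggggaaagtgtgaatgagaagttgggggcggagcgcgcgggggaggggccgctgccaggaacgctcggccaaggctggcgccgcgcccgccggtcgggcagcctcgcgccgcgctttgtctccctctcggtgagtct
Il6: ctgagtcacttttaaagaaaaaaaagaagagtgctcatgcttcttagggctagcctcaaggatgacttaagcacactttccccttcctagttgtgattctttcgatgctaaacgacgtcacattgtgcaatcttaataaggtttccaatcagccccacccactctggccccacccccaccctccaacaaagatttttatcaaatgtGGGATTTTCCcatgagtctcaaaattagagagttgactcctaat
Of all 32851 windows of this length (27025 genes), 7.02% held the STAT motif and 4.65% the kappa B-like motif. The windows of Lif, Lifr, Il6st, Osmr, Jak2 and Stat3 held neither, which says only that these letters are not in those 250 bases. Osmr and Lifr are neighbours on chromosome 15, with 3 genes between them, 0 of which code for protein. A match is a description of the sequence and not a bound site.

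The delivered factors were read first as a check of the labels. Pou5f1, the gene of Oct4, lay between 6.05 and 9.93 on the 16 4F arrays and between 5.23 and 5.60 on the 9 GFP arrays, without overlap. Sox2 lay between 5.74 and 9.48 in 4F and between 5.31 and 5.57 in GFP, also without overlap. Neither gene was called between 4F and GFP on day 1 (Pou5f1 0.69, limma adjusted p = 0.5561, and Sox2 0.45, 0.7061) or day 3 (0.89, 0.1831, and 0.53, 0.3608). Pou5f1 first passed on day 5 (2.13, 0.00132) and Sox2 on day 8 (2.07, 0.0002303). Whether their probe sets show the viruses was not tested. Klf4 went the other way, at 6.65 to 7.61 on 4F arrays and 7.67 to 8.15 on GFP arrays. On day 8 it was lower in 4F by 0.92 ± 0.26 (limma adjusted p = 0.01359), so that its signal does not check the Klf4 virus. Myc lay between 6.37 and 8.50 on 4F arrays and between 7.95 and 9.37 on the 4 3F arrays. Its signal thus does not check the c-Myc virus or the label that separates 4F from 3F. Whether the Klf4 and Myc probe sets detect RNA of the viruses was not tested either. The mean of 12 fibroblast markers lay between 10.35 and 10.49 on day 0, between 9.38 and 10.56 in 4F, between 10.48 and 11.05 in 3F and between 10.68 and 12.23 in GFP, and on day 8, 11 of the 12 were lower in 4F than in GFP (limma, adjusted p under 0.05). All 8 pluripotent cell markers were higher in 4F on that day. Of 12 macrophage markers, 8 stayed below their array's median signal on all 31 arrays, among them Ptprc, the gene of the pan-leukocyte antigen CD45, at 4.84 to 5.38. Laptm5, Cd68, Lyz2 and Cd14 stood above it on 20, 17, 11 and 3 arrays. On day 8 the list had 1 gene higher in 4F than in GFP, Laptm5 (2.58, limma adjusted p = 6.274e-05). It had 2 lower, Lyz2 (-1.87, 0.002109) and Cd14 (-1.51, 0.002665). The mean of 8 endothelial markers lay between 5.48 and 6.11 over all arrays.

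The receptor subunits Il6st and Osmr and the kinase Jak2 were lower in 4F than in GFP cultures on day 8. From day 0, GFP had risen by 2.35, 1.47 and 1.16 log2 units in these 3 genes. In 4F they differed from day 0 by -0.05, -0.88 and -0.39. Il6st was 5.26-fold lower in 4F, Osmr 5.08-fold and Jak2 2.92-fold, each with a limma adjusted p under 0.05. Socs3 rose in 4F by day 2 and was above GFP on days 3 and 5, and on day 8 the arrays of both arms overlapped. Lifr, Jak2 and Stat3 also had both 4F arrays above both GFP arrays on day 3, without a call. Lif stood above its array's median signal on 2 of 31 arrays and Il6 on 4, and the other 6 genes did so on all 31.

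**Figure D1:**
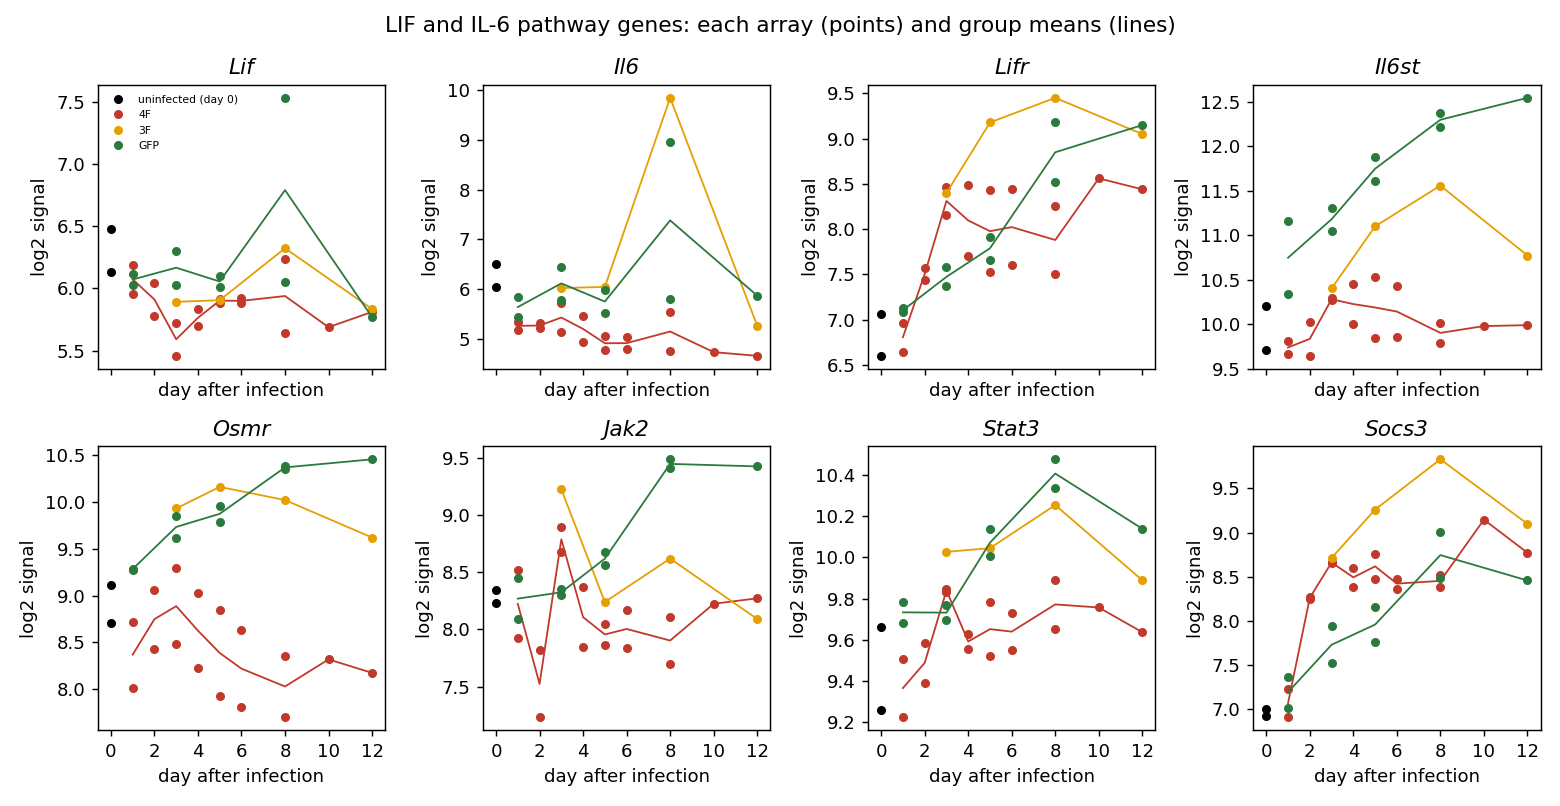
Log2 signal of the 8 genes by day after infection: each point is 1 array (black uninfected, red 4F, orange 3F, green GFP) and lines join group means. Il6st lies between 9.65 and 10.53 on every 4F array and climbs to 12.55 in GFP, and Socs3 in 4F lies at 8.25 or above on every array from day 2.

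Among the ligands, Il6, which encodes a cytokine of inflammation and of senescent fibroblasts, was lowest in 4F. It read 6.51 and 6.05 on the day 0 arrays and 4.66 to 5.73 (median 5.09) on the 16 4F arrays, all of which lay below both day 0 arrays. So did every GFP array except day 3 replicate 2 and day 8 replicate 2. The 4F median lay within the range of the arrays' lower quartiles (5.03 to 5.13), so these signals were dim. The GFP arrays read 5.44 and 5.84 on day 1, 5.78 and 6.45 on day 3, 5.98 and 5.52 on day 5, 5.81 and 8.96 on day 8, and 5.87 on day 12. Within each of these days every GFP array was above every 4F array, but on day 8 a single GFP array stood 3.16 above its partner. The 3F arrays read 6.02, 6.05, 9.85 and 5.27 on days 3, 5, 8 and 12, and the day 8 value was the highest of all 31 arrays. On day 8, 4F was 2.24 ± 0.65 (SE) log2 units below GFP (n = 2 and 2, limma adjusted p = 0.01737). That call rested on single arrays: without GFP day 8 replicate 2 the difference was -0.66 (adjusted p = 0.2407), without GFP day 8 replicate 1 it was -3.81, and without 4F day 8 replicate 1 it was -1.85 (adjusted p = 0.1265). Within the replicate 1 arrays the day 8 difference was -1.05 and within the replicate 2 arrays -3.43. The differences on days 1, 3 and 5 were -0.38, -0.69 and -0.84, none past the threshold. Their SE was 0.65 as well, since the spread is shared by all groups and includes the 3.16 gap of GFP day 8.

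Lif, whose protein keeps mouse embryonic stem cells undifferentiated, varied little. It read 6.48 and 6.13 on day 0, 5.46 to 6.24 (median 5.86) in 4F, and 5.84 to 6.32 in 3F. The 9 GFP arrays read 5.77 to 7.53 (median 6.05), and the top value, like the top GFP value of Il6, was GFP day 8 replicate 2, with 6.05 on its partner. The arms overlapped. The day 8 difference was -0.85 ± 0.32 (limma adjusted p = 0.0649). It passed without dim genes (adjusted p = 0.03644) and with limma-trend (0.04737). That difference depended on single arrays: it was -0.11 without GFP day 8 replicate 2, -1.59 without GFP day 8 replicate 1 and -1.15 without 4F day 8 replicate 2.

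**Figure D2:**
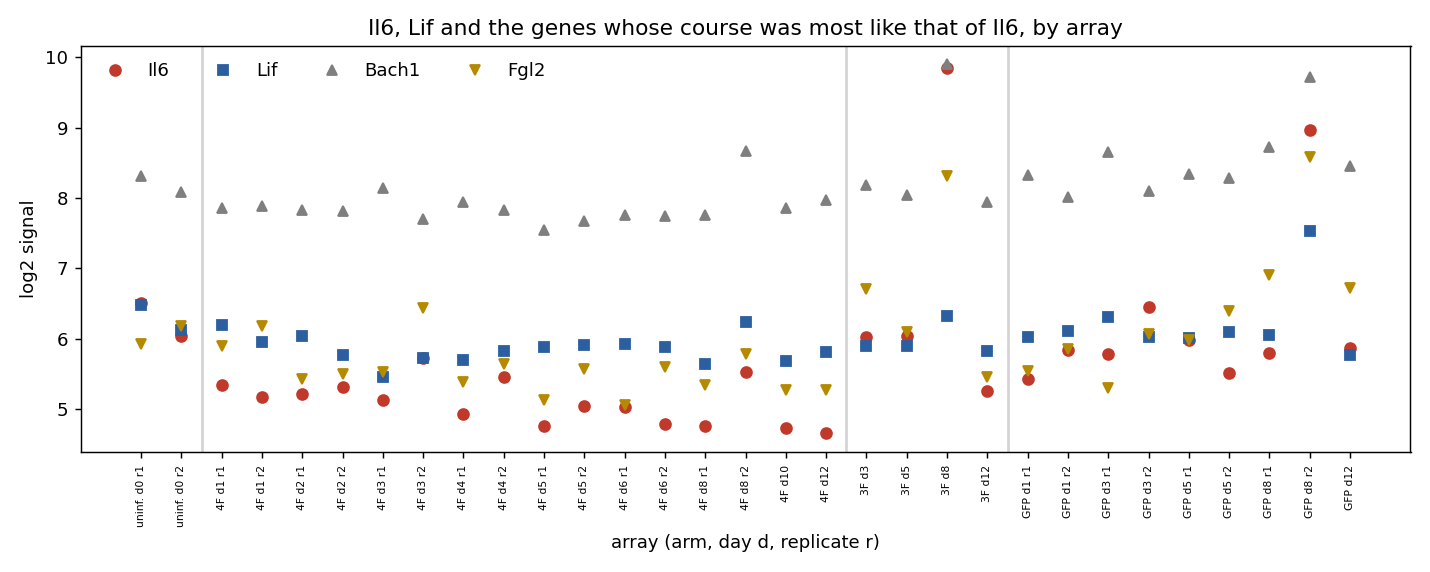
Log2 signal of Il6 and Lif and of Bach1 and Fgl2, the genes whose course was most like that of Il6, on each of the 31 arrays; grey lines part the uninfected, 4F, 3F and GFP arrays. Il6 stands at 9.85 on the 3F array of day 8 and at 8.96 on GFP day 8 replicate 2, and at 6.51 or below on the other arrays, while heights of different genes are not comparable.

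Il6st, the gene of gp130, showed the widest and steadiest separation of the arms. It read 9.71 and 10.20 on day 0 and stayed between 9.65 and 10.53 on all 16 4F arrays. In GFP it read 11.16 and 10.33 on day 1, 11.31 and 11.05 on day 3, 11.61 and 11.89 on day 5, 12.38 and 12.22 on day 8, and 12.55 on day 12. From day 3 on every GFP array was above every 4F array, and both arrays of days 5 and 8 and the array of day 12 were above both arrays of day 3. The 3F arrays read 10.40, 11.10, 11.56 and 10.77, between the means of 4F and GFP on each of the 4 days. 4F was below GFP by 1.01 ± 0.29 on day 1 (limma adjusted p = 0.09505), by 0.90 ± 0.29 on day 3 (0.05395), by 1.56 ± 0.29 on day 5 (0.001046) and by 2.40 ± 0.29 on day 8 (1.663e-05; n = 2 and 2 throughout). The day 8 gap was -2.37 within replicate 1 and -2.43 within replicate 2. With the set of arrays as a block, the day 3 difference passed the threshold (adjusted p = 0.0353). Without GFP day 1 replicate 2 the day 1 difference was -1.42 and passed as well (adjusted p = 0.03533).

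Osmr, the oncostatin M receptor subunit, followed a like course with more spread between the sets of arrays. It read 8.70 and 9.11 on day 0, and 8.02 and 8.72 on day 1, 8.48 and 9.29 on day 3, 7.92 and 8.85 on day 5 and 7.70 and 8.36 on day 8 in 4F. In each of the 7 4F groups of 2 arrays the replicate 2 array was the higher, by 0.63 to 0.92. The GFP arrays read 9.28 and 9.29, 9.62 and 9.86, 9.79 and 9.96, and 10.36 and 10.39 on those days, and 10.46 on day 12. Every GFP array was above every 4F array of its day. The differences were -0.92 ± 0.39 on day 1 (limma adjusted p = 0.323), -0.85 ± 0.39 on day 3 (0.1964), -1.49 ± 0.39 on day 5 (0.01234) and -2.34 ± 0.39 on day 8 (0.00031). With the set as a block, the differences of day 1 (adjusted p = 0.02538) and day 3 (0.0118) passed too. The day 5 call was lost without 4F day 5 replicate 1 (-1.03, adjusted p = 0.1795) and without GFP day 5 replicate 2 (-1.40, adjusted p = 0.07868). The 3F arrays read 9.93, 10.16, 10.02 and 9.62, above every 4F array of the series.

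Lifr, the LIF receptor subunit, read 6.60 and 7.06 on day 0, below every GFP and 3F array and every 4F array from day 2 on. In 4F it read 6.65 and 6.97 on day 1, 7.43 and 7.58 on day 2, 8.16 and 8.47 on day 3, and 7.50 to 8.56 from day 4 to day 12. In GFP it read 7.08 and 7.13 on day 1, 7.58 and 7.37 on day 3, 7.92 and 7.66 on day 5, 9.18 and 8.52 on day 8, and 9.15 on day 12. The arms crossed: on day 3 both 4F arrays were above both GFP arrays, and on day 8 both were below. The difference was 0.84 ± 0.36 on day 3 (limma adjusted p = 0.1603), 0.19 on day 5 and -0.97 ± 0.36 on day 8 (adjusted p = 0.05834). The day 8 difference passed with the set as a block (adjusted p = 0.02623), without dim genes (0.03155) and with limma-trend (0.04388). It was -1.35 without 4F day 8 replicate 2, -1.30 without GFP day 8 replicate 2 and -0.59 without 4F day 8 replicate 1. Within replicate 1 it was -1.68 and within replicate 2 -0.26. In 3F the arrays read 8.40, 9.18, 9.45 and 9.05.

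Jak2, the kinase bound to gp130 and many other cytokine receptors, was level in GFP until day 3 and then higher. It read 8.23 and 8.35 on day 0, and in GFP 8.09 and 8.45 on day 1, 8.35 and 8.30 on day 3, 8.68 and 8.56 on day 5, 9.41 and 9.49 on day 8, and 9.43 on day 12. The 3 GFP arrays of days 8 and 12 were the 3 highest of the series. In 4F it read 7.93 and 8.52 on day 1, 7.23 and 7.82 on day 2, 8.68 and 8.90 on day 3, and 7.70 to 8.37 from day 4 to day 12. Day 2 held the lowest group mean and day 3 the highest of the 4F arm. The step from day 2 to day 3, a comparison picked after these values were seen, was 1.27 ± 0.23 (limma adjusted p = 0.08193, and 0.04073 with the set as a block); in that comparison 0.0301% of all genes were called and 0 of the 8, with 3 of the 8 at an unadjusted p under 0.05 and 0 by limma-trend. Against GFP, 4F differed by 0.47 ± 0.23 on day 3 (adjusted p = 0.2329), by -0.67 ± 0.23 on day 5 (0.05413, and 0.04032 with the block) and by -1.55 ± 0.23 on day 8 (0.0001222). The day 8 gap was -1.71 within replicate 1 and -1.39 within replicate 2. The 3F array of day 3 read 9.23, and those of days 5, 8 and 12 read 8.24, 8.62 and 8.09.

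Stat3, the transcription factor that the receptors activate, moved least of the 6 genes above their array median, over 1.04 log2 units between group means. It read 9.26 and 9.66 on day 0 and 9.22 to 9.89 (median 9.63) on the 16 4F arrays. The GFP arrays read 9.68 and 9.78 on day 1, 9.70 and 9.77 on day 3, 10.14 and 10.01 on day 5, 10.48 and 10.34 on day 8, and 10.14 on day 12. On days 1, 5 and 8 each GFP array was above each 4F array, and on day 3 both 4F arrays (9.85 and 9.83) were above both GFP arrays. 4F was below GFP by 0.42 ± 0.14 on day 5 (limma adjusted p = 0.04216) and by 0.64 ± 0.14 on day 8 (adjusted p = 0.002594). The day 5 call was lost without 4F day 5 replicate 1 (-0.29, adjusted p = 0.3482), GFP day 5 replicate 1 (-0.36, adjusted p = 0.2145) or GFP day 5 replicate 2 (-0.48, adjusted p = 0.08179), and with quantile normalization (adjusted p = 0.05491) or limma-trend (0.06266). Signals of Stat3 RNA do not report its phosphorylation, which arrays do not measure.

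Socs3, the feedback inhibitor and a direct STAT3 target, lay above both day 0 arrays from day 2 on in 4F and on every GFP array. GFP had no array of day 2, and its days 3 and 5 were not tested against day 0. Socs3 read 6.997 and 6.919 on day 0. In 4F it read 6.90 and 7.23 on day 1, 8.27 and 8.25 on day 2, 8.66 and 8.66 on day 3, 8.36 to 8.76 from day 4 to day 8, 9.15 on day 10 and 8.77 on day 12. Every 4F array from day 2 on was above the arrays of days 0 and 1. The step from day 1 to day 2, again picked after the values were seen, was 1.20 ± 0.19 (limma adjusted p = 0.005722), in a comparison that called 1.72% of all genes and 1 of the 8. Without 4F day 1 replicate 1 it was 1.03 and was lost (adjusted p = 0.07702). In GFP Socs3 read 7.36 and 7.01 on day 1, 7.94 and 7.51 on day 3, 8.16 and 7.75 on day 5, 9.00 and 8.49 on day 8, and 8.46 on day 12. On days 3 and 5 both 4F arrays were above both GFP arrays, and on day 8 the arms overlapped. 4F was above GFP by 0.93 ± 0.19 on day 3 (adjusted p = 0.004941) and by 0.66 ± 0.19 on day 5 (0.02192), and differed by -0.29 ± 0.19 on day 8 (0.312, 95% interval -0.70 to 0.12). The day 5 call was lost without 4F day 5 replicate 2 (0.52, adjusted p = 0.1616) and without GFP day 5 replicate 2 (0.46, adjusted p = 0.2121). The 3F arrays read 8.71, 9.26, 9.83 and 9.10, and the day 8 array was the highest of all 31.

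The second Socs3 probe set read lower throughout, 6.01 to 7.57. It also had its highest value on the 3F array of day 8 and read 6.18 and 6.06 on day 0, 6.26 and 6.65 in 4F on day 3, and 6.61 and 6.31 in GFP on day 3. With the mean of both probe sets the day 3 difference between 4F and GFP was 0.47 and did not pass (limma adjusted p = 0.07788). The Socs3 difference of that day thus rests on the brighter probe set. In 4F the second probe set read 6.01 and 6.19 on day 1, 6.35 and 6.43 on day 2, and 6.44 and 6.53 on day 8. Its 4F rises from day 1 to day 2 and from day 0 to day 8 were thus smaller than those of the brighter one.

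**Figure D3:**
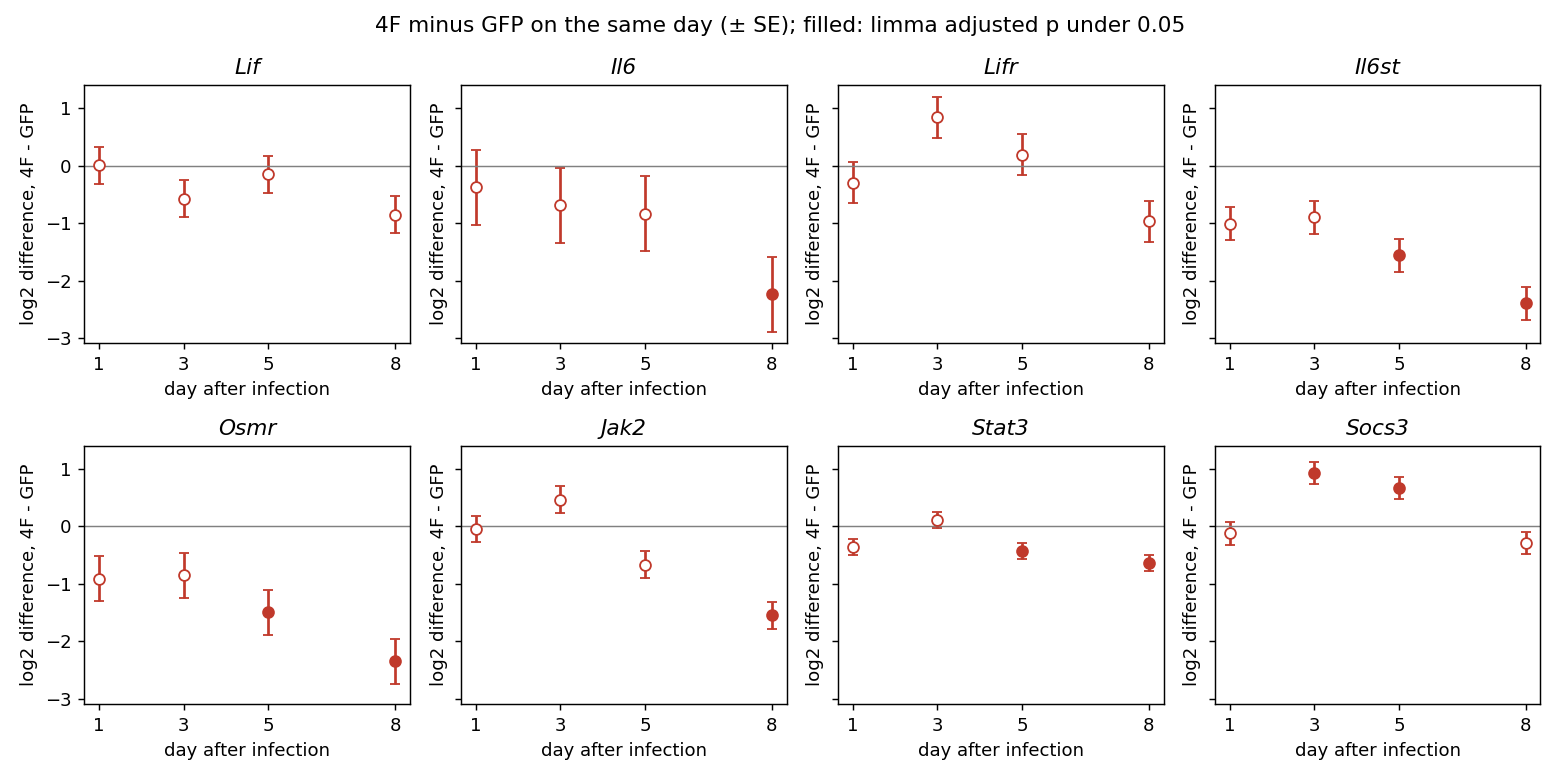
Difference between 4F and GFP on the same day for each of the 8 genes, in log2 units with the limma SE as bars (n = 2 and 2 arrays); filled points have an adjusted p under 0.05. Il6st and Osmr move from -1.01 and -0.92 on day 1 to -2.40 and -2.34 on day 8. Socs3 (filled) and Lifr (open) are above zero on days 3 and 5.

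Counted by day, the number of the 8 genes called between 4F and GFP grew with the number called among all genes. On day 1, limma called 0 of the 8 and 1.81% of all genes; 3 of the 8 (Il6st, Osmr and Stat3, all lower) had an unadjusted p under 0.05, and limma-trend called 0. On day 3, 1 of the 8 was called, Socs3, beside 11.9% of all genes. On day 5, 4 were called beside 21.4%, namely Il6st, Osmr and Stat3 lower and Socs3 higher; leaving out 4F day 5 replicate 1 left 2 and GFP day 5 replicate 2 left 1. On day 8, 5 were called, all lower (Il6, Il6st, Osmr, Jak2 and Stat3), beside 13% of all genes called lower and 27.6% called in either direction. All 8 differences of day 8 were below zero, with a median of -1.26 beside -0.03 over all genes. Over the mean of days 1, 3, 5 and 8, 5 were lower and Socs3 higher (0.30 ± 0.10), beside 37.4% of all genes. That Socs3 call was lost with the mean of both its probe sets (0.14, adjusted p = 0.1902) and without any 1 of 4F day 1 replicate 2, 4F day 5 replicate 2, 4F day 8 replicate 2, or replicate 2 of GFP on day 1, 3, 5 or 8 (adjusted p from 0.05011 to 0.06777). Lif, at -0.39 ± 0.16 (adjusted p = 0.06954), passed without GFP day 8 replicate 1 (-0.58) or 4F day 8 replicate 2 (-0.47).

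Whether the gap between the arms widened was tested as the difference on day 8 minus the difference on day 1. Jak2 changed by -1.50 ± 0.33 (limma adjusted p = 0.009845) and Il6st by -1.39 ± 0.40 (adjusted p = 0.04573), 2 of the 8 beside 8.49% of all genes. The value of Osmr was like theirs in size, -1.43 ± 0.55, and did not pass (adjusted p = 0.1457; 0.004968 with the set as a block). The Jak2 call was lost without 4F day 1 replicate 2 (-1.20, adjusted p = 0.05806). The Il6st call was lost without any 1 of 7 of its 8 arrays, all but GFP day 1 replicate 1 (values from -1.50 to -0.98, adjusted p from 0.06522 to 0.1948), and with quantile normalization (-1.05, adjusted p = 0.1346). Il6 (-3.44) and Lif (-1.59) passed without GFP day 8 replicate 1 and not otherwise.

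Set against uninfected cells, the widening gap had different parts in the 2 arms. In GFP on day 8, 6 of the 8 genes had risen from day 0, beside 8.92% of all genes called higher and 20.1% called at all: Il6st by 2.35 ± 0.29 (limma adjusted p = 4.095e-05), Lifr by 2.02 ± 0.36 (0.000834), Socs3 by 1.79 ± 0.19 (1.569e-05), Osmr by 1.47 ± 0.39 (0.01398), Jak2 by 1.16 ± 0.23 (0.001987) and Stat3 by 0.95 ± 0.14 (0.0001835). In 4F on day 8, 1 of the 8 was called against day 0, beside 15.9% of all genes: Socs3, by 1.49 ± 0.19 (adjusted p = 8.102e-05). At an unadjusted p under 0.05 there were 4 of the 8 (Socs3, Lifr, Osmr and Stat3), and limma-trend called 2. Il6st in 4F differed from day 0 by -0.05 (95% interval -0.66 to 0.56), Jak2 by -0.39, Osmr by -0.88 (adjusted p = 0.1664) and Lifr by 1.05 (adjusted p = 0.06256). With the set as a block Lifr (0.0259) and Osmr (0.007216) passed. Lifr also passed without dim genes (0.03416) and with limma-trend (0.04745), and Stat3 with quantile normalization (0.45, adjusted p = 0.01748). The Osmr rise in GFP was lost without day 0 replicate 1 (1.26, adjusted p = 0.1115), GFP day 8 replicate 1 (1.48, adjusted p = 0.06588) or GFP day 8 replicate 2 (1.45, adjusted p = 0.05596). Il6 and Lif in GFP passed only without GFP day 8 replicate 1 (2.69 and 1.23). Without day 0 replicate 2, Stat3 passed in 4F (0.51, adjusted p = 0.04278), and without 4F day 8 replicate 1 Lifr did (1.43, adjusted p = 0.03701). These comparisons share the day 0 arrays, so their values are set side by side only. One day after infection neither arm had a called member: limma called 0 of 8 in 4F (0 at an unadjusted p under 0.05, 0 by limma-trend; 0.838% of all genes) and 0 of 8 in GFP (1 at an unadjusted p under 0.05, Il6st at 0.79; 0 by limma-trend; 0.0903% of all genes).

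Of 12 fibroblast markers, 7 were higher and 1 lower in GFP on day 8 than on day 0 (list median 1.06, beside 1.31 for the 8 pathway genes). In 4F, 7 were lower and 1 higher (list median -1.21, beside -0.21 for the 8). Their mean signal on day 8 was 9.58 and 9.38 in 4F, 11.05 in 3F and 12.10 and 12.05 in GFP, and their part in the pathway values was not tested.

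**Figure D4:**
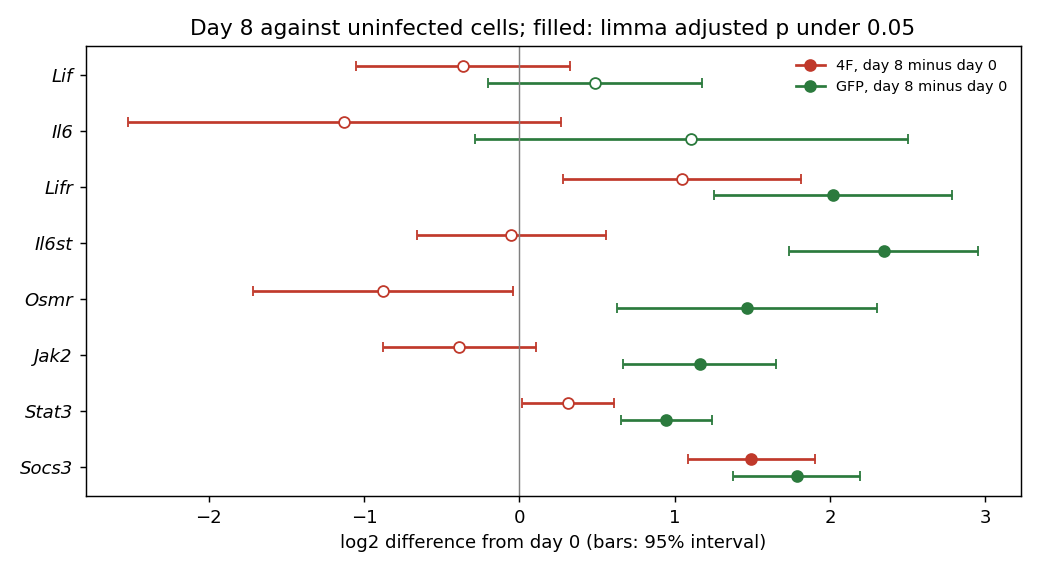
Difference of day 8 from uninfected cells in 4F (red) and GFP (green) for the 8 genes, in log2 units with 95% intervals (2 arrays a group); filled points have a limma adjusted p under 0.05. Socs3 lies at 1.49 in 4F and 1.79 in GFP, whereas Il6st lies at -0.05 in 4F and 2.35 in GFP.

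In the arm without c-Myc most of the genes read between 4F and GFP or above both. Over days 3, 5, 8 and 12, Osmr was higher in 3F than in 4F by 1.55 ± 0.27 log2 units (limma adjusted p = 0.004636), 1 of the 8 beside 9.63% of all genes. All 8 differences from 4F were above zero, with a median of 0.72 beside -0.01 over all genes. Il6st, at 0.84 ± 0.25, did not pass (adjusted p = 0.05163), but passed without any 1 of GFP day 12, 3F day 12, 4F day 3 replicate 1, 4F day 3 replicate 2, 4F day 5 replicate 2 and GFP day 3 replicate 2 (adjusted p from 0.0282 to 0.04443). Against GFP, Il6st was lower in 3F by 0.92 ± 0.25 (adjusted p = 0.02071) and Socs3 higher by 1.03 ± 0.21 (0.003028), 2 of the 8 beside 18.3% of all genes. The Il6st call was lost without GFP day 12 (-0.74, adjusted p = 0.06004), 3F day 3 (-0.81, adjusted p = 0.07685) or 3F day 12 (-0.79, adjusted p = 0.08876). Day by day, 3F minus GFP in Socs3 was 0.99, 1.31, 1.09 and 0.64, and in Il6st -0.78, -0.65, -0.74 and -1.77. Because 3F had 1 array a day, its days stand in for replicates, and all its arrays are in the set without a replicate number. With the amount of labelled RNA as a term, chosen after the values were seen, Osmr against 4F (1.35, adjusted p = 0.009186) and Il6st and Socs3 against GFP (-0.96, 0.02799; 1.07, 0.004651) passed. With the set as a block, 3F is compared through day 12 alone, and no call remained among the 8 (Osmr against 4F 1.14, adjusted p = 0.539; Il6st against GFP -1.37, 0.1024; Socs3 against GFP 0.69, 0.3309).

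For each gene, the 2 genes with the most similar course were taken by Pearson correlation over the 19 group means, among 5830 genes. These are descriptions, since the groups share arms and days. Il6st was followed by Casp12 and Gpr153 (r = 0.976 each), Osmr by the chemokine Ccl7 (0.965) and by Fstl1 (0.964), and Lifr by the matrix proteoglycan Prelp (0.965) and by Cd55 (0.952), which guards cells against complement. Socs3 was followed by Mgst1 (0.956) and Apod (0.951), Stat3 by Lix1l (0.904) and Os9 (0.894), Jak2 by Cdo1 (0.871) and Rgl1 (0.867), and Lif by Rnd1 (0.84) and Trib1 (0.83). Il6 was followed by the transcription repressor Bach1 (0.942) and by Fgl2 (0.914). Bach1 read 9.90 on the 3F array of day 8 and 9.72 on GFP day 8 replicate 2, against 8.72 on the other GFP array of that day, and Fgl2 read 8.32, 8.58 and 6.91 on the same 3 arrays.

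The other genes of the pathway were taken from 7 lists with 78 measured genes, of which 9 were higher and 22 lower in 4F than in GFP on day 8, beside 14.5% and 13% of all genes. Of 9 other ligands of the family 2 were lower, with a list median of -0.18: Clcf1, a cytokine that signals through the CNTF receptor, by 1.16 ± 0.19 (limma adjusted p = 0.0002571), and cardiotrophin 1, Ctf1, by 0.52 ± 0.12 (0.003763). Clcf1 read 7.29 and 7.67 on day 0, 5.98 and 5.97 in 4F on day 8, and 6.95 and 7.31 in GFP on day 8. From day 0 to day 8, 4F differed by -1.51 ± 0.19 (limma adjusted p = 6.396e-05). GFP differed by -0.35 ± 0.19 (0.2363, 95% interval -0.76 to 0.05). The GFP group means of days 1, 3, 5 and 12 were 6.965, 7.086, 6.724 and 6.754, below the day 0 mean of 7.483. Of 5 other receptors 1 was lower, Cntfr (-0.58 ± 0.15, adjusted p = 0.00889; lost without GFP day 8 replicate 1, -0.50, adjusted p = 0.07616).

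Of 11 other kinases, STATs and adaptors, 4 were lower and 2 higher, with a median of -0.07. Jak1, the principal JAK of gp130, read 9.77 and 10.12 on day 0, 9.13 and 8.99 in 4F on day 8, 10.05 on the 3F array, and 10.60 and 10.45 in GFP. Both 4F arrays lay below all of these others, and the difference from GFP was -1.47 ± 0.13 (limma adjusted p = 1.246e-06), made of a fall of 4F from day 0 by 0.88 ± 0.13 (0.0002488) and a rise of GFP by 0.58 ± 0.13 (0.004621). The rise in GFP was lost without day 0 replicate 1 (0.41, adjusted p = 0.08014) or GFP day 8 replicate 1 (0.51, adjusted p = 0.05341). Stat6, the IL-4 pathway factor, was lower by 0.48 ± 0.10 (0.001841). Stat5a (-0.48 ± 0.16, 0.03349) and the adaptor Gab1 (0.53 ± 0.17, 0.02441) passed as well, but Stat5a was lost without 4F day 8 replicate 1 (adjusted p = 0.1268), 4F day 8 replicate 2 (0.08473) or GFP day 8 replicate 1 (0.2012), and Gab1 without 4F day 8 replicate 1 (0.1092), 4F day 8 replicate 2 (0.06252) or GFP day 8 replicate 2 (0.25, 0.3161).

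Of 15 other inhibitors, 4 were higher and 2 lower, with a median of 0.01. Socs2 was higher by 0.83 ± 0.21 (limma adjusted p = 0.00798), reading 7.77 and 7.88 on day 0, 7.02 and 7.61 in 4F on day 8, and 6.41 and 6.56 in GFP. Unlike Socs3 it had fallen in GFP, by 1.33 ± 0.21 from day 0 (adjusted p = 0.0003502). The phosphatase gene Ptpn6 was higher in 4F (0.61 ± 0.16, 0.01131), and Pias3 (-0.65 ± 0.17, 0.008508) and Socs5 (-0.53 ± 0.13, 0.005164) were lower. All 4 were lost without 4F day 8 replicate 2: Socs2 at 0.53 (adjusted p = 0.1133), Ptpn6 at 0.28 (0.1805), Pias3 at -0.60 (0.05118) and Socs5 at -0.29 (0.08429). Without GFP day 8 replicate 1, Socs2 (0.05898), Pias3 (-0.46, 0.1152) and Ptpn6 (0.46, 0.1237) were lost too.

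Genes described as STAT3 targets were counted in 3 lists. Of 20 immediate and stromal targets, 8 were lower and 2 higher, with a median of -0.39. Il4ra, a cytokine receptor chain, read 9.02 and 9.32 on day 0, 7.40 and 7.68 in 4F on day 8, 9.76 on the 3F array, and 10.68 and 11.05 in GFP. It differed by -3.33 ± 0.34 (limma adjusted p = 4.107e-06), and 4F had fallen from day 0 by 1.64 ± 0.34 while GFP had risen by 1.69 ± 0.34 (adjusted p = 0.00352 and 0.002089). The chemokine gene Ccl2 was lower by 2.57 ± 0.56 (0.002665), with 11.04 and 10.68 on GFP day 8 replicate 2 and the 3F array of day 8, the 2 arrays on which Il6 was highest, and 9.54 on GFP day 8 replicate 1. Hif1a, the hypoxia factor, was lower by 2.28 ± 0.20 (1.303e-06). Pim2, a survival kinase, was higher by 2.53 ± 0.19 (2.644e-07), at 9.18 and 8.92 in 4F, 7.87 in 3F and 6.50 and 6.56 in GFP, and 6.18 and 6.64 on day 0.

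Of 14 acute-phase genes 5 were lower and 0 higher in 4F, with a median of -0.14, and 6 of the 14 had risen in GFP from day 0. Lcn2, the iron-binding protein lipocalin 2, read 5.58 and 5.39 on day 0, 5.45 and 5.78 in 4F on day 8, 6.25 on the 3F array, and 9.78 and 7.80 in GFP. A2m, a protease inhibitor, read 5.52 and 5.59, 5.53 and 5.85, 5.67, and 8.36 and 7.34 on the same arrays. Both were far above the rest on the 2 GFP arrays, and differed between 4F and GFP by -3.18 ± 0.62 (limma adjusted p = 0.001065) and -2.16 ± 0.29 (4.061e-05). Neither differed from day 0 in 4F at the threshold (0.13 and 0.13). Saa3, a serum amyloid protein and another of the 5, had risen in 4F, by 2.58 ± 0.52 from day 0 (adjusted p = 0.002677), and 2 of the 14 genes were higher in 4F on day 8 than on day 0. It read 6.11 and 6.00 on day 0, 8.04 and 9.23 in 4F on day 8, 11.56 on the 3F array, and 13.29 and 12.56 in GFP. Serpina3n was also among the 5.

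Of 4 STAT3 targets of naive pluripotency 1 was higher in 4F, Tfcp2l1, which sustains embryonic stem cells downstream of LIF. It read 5.64 and 5.71 on day 0, 6.75 and 7.19 in 4F on day 8, 7.70 on the 3F array, and 6.13 and 5.80 in GFP. The 4F and 3F arrays were above all GFP and day 0 arrays, and 4F differed from GFP by 1.00 ± 0.18 (limma adjusted p = 0.0005275) and from day 0 by 1.29 ± 0.18.

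**Figure D5:**
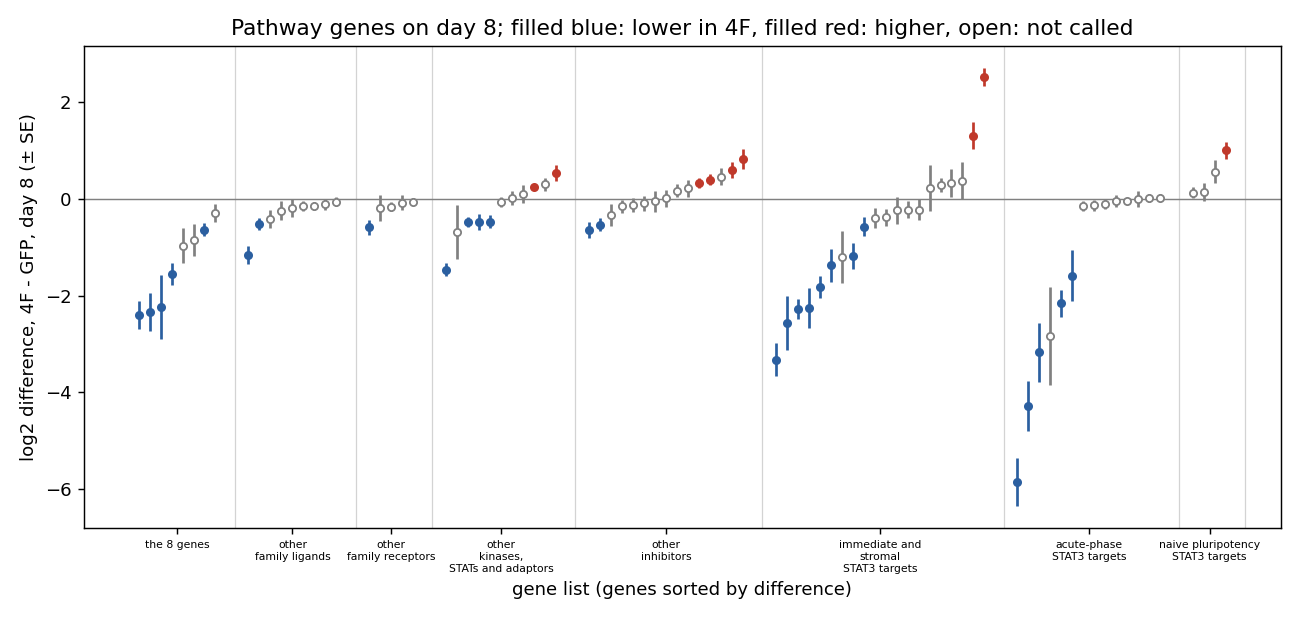
Difference between 4F and GFP on day 8 for the 8 genes and for the 78 measured genes of 7 pathway lists, each point a gene in log2 units with the limma SE (n = 2 and 2 arrays); blue is lower, red higher (adjusted p under 0.05) and open grey not called. The 8 genes lie at or below -0.29, and the immediate and stromal targets range on both sides of zero, with Pim2 at 2.53 and Il4ra at -3.33.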

How the data were processed

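Expression was measured on 31 Affymetrix single-colour arrays. Per the labels, biotinylated sense targets were made from 120 ng of RNA for the replicate 1 arrays (12) and 300 ng for the others (19). The deposited values are log2 signals per probe set, from 4.27 to 14.33, with array medians from 6.04 to 6.17. Their background correction and normalization were not given in the sources used here, and they were used as deposited. No raw files were read, so probes near background could not be marked.

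Of 28853 rows, 21789 carried 1 gene symbol, 1621 several and 5443 none. For the 999 genes with several rows the row of highest mean over the 31 arrays was used. The 3F samples were taken as 3 factors from their titles, although their source description speaks of 4.

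The tests were run in limma 3.58.1 (R 4.3.3), with 1 mean per group over 31 arrays (12 residual and 2.68 prior degrees of freedom). For the 3F arm, day and arm were fitted as additive terms over 18 arrays (12 residual and 2.26 prior). P-values were adjusted over all 19938 genes by Benjamini-Hochberg, and genes with an adjusted p under 0.05 were called. The fits were tested on simulated data.

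The replicate number was taken to pair arrays into sets. Per the labels it marks the amount of RNA labelled for replicate 1. No label names a batch or parts replicate 2 from the arrays without a number, which were a set of their own. Replicate differences of 66 pairs of groups correlated with r from 0.081 to 0.69 (median 0.32), 65 over 0.1. The alternatives tried were this block, the RNA amount as a term for 3F (added after the values were seen), quantile normalization, a filter on dim genes, the mean of a gene's rows, limma-trend and each array left out. Named genes are the 8, the delivered factors, the 2 most alike to each, and up to 4 called genes with the largest day 8 difference per list. The members and lists were chosen with earlier results of these data known, and 2 comparisons of successive 4F days were added after the values were seen. Promoter windows came from RefSeq (GRCm38.p6).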

Additional observations from a re-analysis of the deposited data

Results flagged for a closer look

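The difference between 4F and GFP itself was called as changed between day 1 and day 8 for 2 of the 8 genes, beside 8.49% of all genes. The contrast tests that change (limma, adjusted p under 0.05). Jak2 changed by -1.50 log2 units, from -0.05 on day 1 to -1.55 on day 8, and Il6st by -1.39, from -1.01 to -2.40. All 4 GFP arrays and all 4 4F arrays of those days enter each value. Osmr changed by as much, -1.43, without a call (limma adjusted p = 0.1457). Both calls were fragile. The Il6st call was lost with quantile normalization (-1.05, adjusted p = 0.1346) and, as given above, on leaving out most of its arrays singly. The Jak2 call was lost without 4F day 1 replicate 2, at -1.20.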

How the results depend on the processing

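Over the 8 genes and 20 named pathway genes, 1911 values were recomputed under alternatives. Of these, 1795 kept their side of the threshold, 62 lost a call, 54 gained one and 0 of the called values reversed. The 1795 include values that were not called and changed sign, such as Il6 in 3F against GFP (from -0.62 to 0.89 over the alternatives). With the replicate block (set of arrays as a term), the number of the 8 genes called went from 0 to 1 on day 1, from 1 to 3 on day 3, from 1 to 3 for 4F day 8 against day 0, from 0 to 1 for 4F day 3 against day 2, from 2 to 0 for 3F against GFP and from 1 to 0 for 3F against 4F. With the RNA amount as a term in place of the set, the 3F counts stayed at 2 and 1. Quantile normalization gave 1 in place of 2 for day 8 minus day 1 and 2 in place of 1 for 4F day 8 against day 0. Without dim genes, 2 were called on day 3 and for 4F day 8 against day 0, and 4 for 3F against 4F. The mean of all rows gave 0 on day 3 and 2 for 3F against 4F, and limma-trend gave 2 on day 3, for 4F day 8 against day 0 and for 3F against 4F. For 4F against GFP on day 8, the block gave 6 in place of 5, and limma-trend and the filter on dim genes 7 each. On day 5 the block and the filter gave 5 in place of 4. The block gave 3 in place of 2 for day 8 minus day 1. Over the mean of 4 days, the filter gave 7 and the mean of all rows 5 in place of 6.

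Leaving out 1 array at a time gave 0 to 1 called on day 1, 1 to 3 on day 5, 4 to 7 on day 8, 5 to 7 over the mean of 4 days, 0 to 3 for day 8 minus day 1, 1 to 2 for 4F day 8 against day 0, 5 to 7 for GFP day 8 against day 0, 0 to 1 for 4F day 2 against day 1, and 1 to 2 for 3F against GFP and for 3F against 4F. Counts over all genes moved with the block from 361 to 924 on day 1, from 2378 to 3749 on day 3, from 1693 to 2820 for day 8 minus day 1, from 167 to 369 for 4F and from 18 to 143 for GFP on day 1 against day 0, from 343 to 822 and from 6 to 57 for the steps from day 1 to 2 and 2 to 3, and from 1921 to 14 for 3F against 4F. Leaving out 1 array took the count as low as 23 on day 1, 1134 on day 3, 2427 on day 5, 922 for day 8 minus day 1, 29 for 4F and 3 for GFP on day 1 against day 0, 1958 for 4F day 8 against day 0, 68 and 0 for the 2 steps, and 440 for 3F against 4F. The step from day 2 to 3 called 11 genes with quantile normalization, the mean of all rows or limma-trend. Apart from the array left out, or the terms added, the cause of these changes was not tested.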
